A study of Drosophila melanogaster with 10 samples.

Results

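The genes described here are 19 subunit genes of the vacuolar ATPase (V-ATPase) and 19 Atg genes of autophagy, 38 of the 7987 genes listed in the deposited table. They were taken by symbol, as all entries that start with Vha or with Atg followed by a digit. No measured value entered that rule, but the families were chosen with earlier results of these data known. The reference annotation holds 33 Vha genes and 20 Atg genes. Of these, 14 Vha genes and Atg8b were not analysed here. VhaAC45RP, which the table lists as CG31030, is not among the members by symbol and is described with the assembly factors, and the member VhaM8.9 is annotated under another name. The families are reported apart.

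The V-ATPase is a rotary proton pump of lysosomes, endosomes and some plasma membranes. Its V1 sector lies in the cytosol and hydrolyses ATP, its V0 sector spans the membrane and carries the protons, and accessory proteins help to assemble and sort the pump. Autophagy encloses cytoplasm in a membrane and delivers it to the lysosomes that this pump acidifies. The Atg1 kinase complex starts it, the Atg6 and Atg14 lipid kinase complex and the proteins Atg2, Atg9 and Atg18 build the membrane, and a pair of ubiquitin-like conjugation systems, of Atg12 and of Atg8, attach Atg8 to the growing membrane. In imaginal discs, the larval precursors of adult organs, the endosomal pump is known for its part in Notch and Wingless signaling, and autophagy for its control by nutrient signals.

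RNA was sequenced from pooled whole wing imaginal discs of larvae of the third instar, in 10 libraries of 4 genotypes. All of them carry Gal4 under the apterous enhancer, temperature-sensitive Gal80 under the tubulin promoter, which holds Gal4 back until the shift to the higher temperature, and UAS-GFP. The control, ap > GFP (2 libraries, numbered 1 and 3), carries a further copy of UAS-GFP. ap > NelfAi (2 libraries) adds UAS-NelfA RNAi, against a subunit of the negative elongation factor NELF, ap > Yki (3 libraries) adds UAS-Yki, the transcription cofactor that the Hippo pathway restrains, and ap > Yki+NelfAi (3 libraries) adds both. The labels call ap > GFP and ap > NelfAi wild type in growth, ap > Yki mildly overgrown and ap > Yki+NelfAi neoplastic, and the last is called tumorous here. The apterous driver acts in the dorsal compartment only, so each library mixes dorsal cells with ventral cells that express no transgene. In such bulk samples fewer cells of a type and less RNA per cell cannot be told apart. The submitters call the replicates biological without saying whether they came from separate crosses, so p-values measure the spread between these pools.

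Values are the deposited ones, the reads on a gene divided by a factor of the library, and each library held 6990931 to 13065642 reads on genes. Nelf-A, the target of the RNAi, was at 36.0 and 40.4 in ap > GFP, 28.1 to 39.4 in the ap > Yki discs and 15.8 to 17.1 in the tumorous discs. In ap > NelfAi it was at 11.4 in replicate 1 and at 32.9 in replicate 2, so replicate 2 lies near the controls and against its label. The ap > NelfAi libraries also stood apart from each other, with a rank correlation over genes of 0.865 against 0.952 to 0.990 between other replicates. For each library, every gene's log2 deviation from its mean over the 10 libraries was compared with its exonic length. The rank correlation was -0.66 in ap > NelfAi 1 and 0.49 in ap > NelfAi 2, and -0.20 to 0.47 in the other libraries. All 9 wing disc markers were listed, and they summed to 293 to 627 over the libraries. Among markers of other tissues, the 4 muscle genes summed to 235 and 475 in ap > GFP and 26.3 to 43.0 in the tumorous discs, and the 4 salivary gland genes to 55.7 and 259 against 0.274 to 3.34. The 4 myoblast genes summed to 47.2 and 53.1 against 14.0 to 17.0, 4 of 5 tracheal genes to 535 and 768 against 1100 to 1250, 6 of 7 hemocyte genes to 14.7 and 18.7 against 31.0 to 36.5, and 5 of 6 fat body genes to 30.8 and 36.5 against 12.6 to 45.8. In ap > NelfAi replicates 1 and 2 the muscle genes summed to 996 and 199 and the fat body genes to 258 and 43.1, and in ap > Yki to 78.9 to 123 and 15.0 to 166. The 2 of 3 Malpighian tubule genes listed summed to 35.1 and 44.6 in ap > GFP and 25.2 and 29.5 in ap > NelfAi. In ap > Yki they summed to 46.9 to 65.5 and in the tumorous discs to 25.7 to 33.5. The 3 of 4 neuron genes listed summed to 14.3 and 17.1 in ap > GFP and 10.6 to 20.7 in the tumorous discs. In ap > NelfAi they summed to 4.11 and 16.5 and in ap > Yki to 8.84 to 18.0. The part of these tissues in the results was not tested.

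In the tumorous discs 3 subunit genes of the cytosolic V1 sector, Vha68-2, Vha44 and Vha26, were higher than in control discs, and Vha100-4 of the membrane sector V0 was lower. A gene was called where limma, fitted on log2(value + 0.5) over 7858 genes and all 10 libraries, gave a p under 0.05, adjusted by Benjamini-Hochberg over those genes, together with a difference of 1.5-fold or more. Changes on this scale understate those of genes with low values. Against ap > GFP, 3 of the 19 V-ATPase genes were called higher, Vha68-2, Vha44 and Vha26, where 10% of all genes, 789 of 7858, were. Only Vha100-4 was called lower, where 12.1% of all genes were. For a list of 19 genes the count called higher lies near that background. The log2 fold change was above 0 for 15 of the 19 genes, and its median was 0.30 against 0.03 over all genes tested. The 3 genes called higher were among the 9 of V1, whose median was 0.51. The 8 genes of V0 had a median of 0.23 with 0 called higher, both by limma and by edgeR and DESeq2, and 1 of them, Vha100-4, had an unadjusted p under 0.05. Whether the sectors differed was not tested. The 2 accessory genes had a median of 0.39 with 0 called by limma, edgeR or DESeq2 and 0 at an unadjusted p under 0.05.

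**Figure D1:**
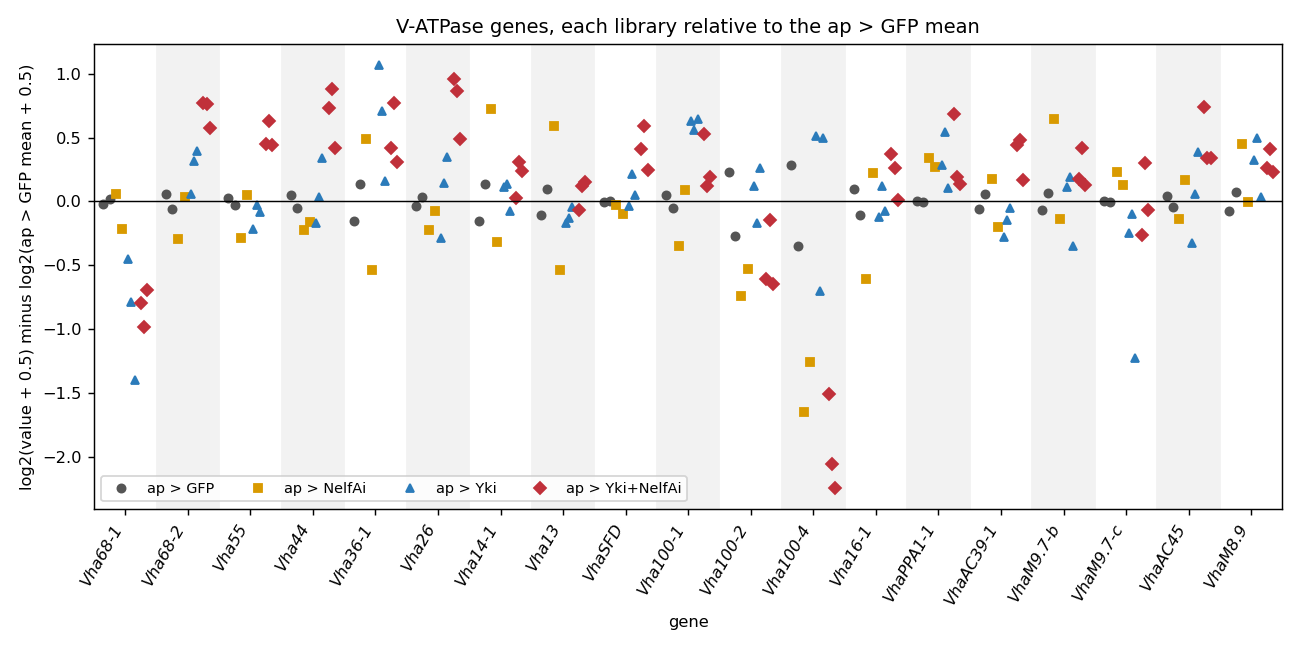
Each point is a library, plotted by gene as log2(value + 0.5) minus the log2 of the ap > GFP mean + 0.5, with a marker and color for each genotype. The tumorous libraries lie above all other libraries for Vha68-2, Vha55, Vha44, Vha26 and VhaSFD. They are low for Vha100-4, where they overlap with the ap > NelfAi libraries, which are also low.

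Vha68-2 encodes the catalytic A subunit of V1 and lies on chromosome arm 2L, from 12974322 to 12978607 (dm6). It was measured at 147 and 136 in ap > GFP, 116 and 145 in ap > NelfAi, 147, 177 and 186 in the ap > Yki discs and 242, 241 and 211 in the tumorous discs. Every tumorous library was above every other library. Its mean was 142 ± 8.44 (SD, n = 2) in ap > GFP and 231 ± 17.2 (SD, n = 3) in the tumorous discs, a log2 fold change of 0.71 ± 0.18 (SE), with an adjusted p by limma of 0.0215. Against ap > Yki, whose mean was 170.0 ± 20.2 (SD, n = 3), the change was 0.45 ± 0.16 with an adjusted p of 0.0857, and it was not called. The call against ap > GFP was lost without ap > GFP 1 (adjusted p 0.0996), ap > GFP 3 (0.168), ap > Yki+NelfAi 1 (0.0645) or ap > Yki+NelfAi 2 (0.0745).

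Vha55 encodes the B subunit, which forms the ATP-hydrolysing ring together with A, and lies on arm 3R, from 12623762 to 12627829. It was at 159 and 154 in ap > GFP, 128 and 162 in ap > NelfAi, 135, 153 and 147 in the ap > Yki discs and 214, 242 and 213 in the tumorous discs. The tumorous libraries again did not overlap with any of the others. The change from ap > Yki was 0.62 ± 0.15 with an adjusted p of 0.0216 by limma, which was called, and the change from ap > GFP was 0.51 ± 0.17 with an adjusted p of 0.0588, which was not. Its call was lost without any of ap > Yki 1, ap > Yki 2 and the tumorous libraries 1 to 3, with adjusted p-values of 0.0501 to 0.0943.

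Vha44 encodes the C subunit, which holds V1 to V0 and leaves when the pump comes apart, and lies on arm 2R, from 16324813 to 16336637. It stood at 56.3 and 52.6 in ap > GFP, 46.6 and 48.5 in ap > NelfAi, 48.2, 55.8 and 68.9 in the ap > Yki discs and 90.7, 101 and 72.9 in the tumorous discs. All tumorous libraries were above the others, the lowest of them close to ap > Yki 3. On the log2 scale it rose by 0.68 ± 0.21 against ap > GFP and by 0.61 ± 0.18 against ap > Yki, with adjusted p-values by limma of 0.0435 and 0.0492. The first call was lost without ap > GFP 1, ap > GFP 3, ap > Yki 2, ap > Yki+NelfAi 1 or ap > Yki+NelfAi 2 (0.0689 to 0.232). The other was lost without either ap > GFP library, ap > Yki 1, ap > Yki 2 or any tumorous library (0.0538 to 0.183). Its exons overlap 148 bp of Hmgs, a gene of the mevalonate pathway on the opposite strand, over 3.68% of their length. Hmgs was itself called higher against ap > GFP, by 1.52 ± 0.22 on the log2 scale, and the sources do not say whether counting used strand.

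Vha26 encodes the E subunit of the outer stalk of V1 and lies on arm 3R, from 5591763 to 5595356. It was at 116 and 122 in ap > GFP, 102 and 114 in ap > NelfAi, 97.6, 132 and 152 in the ap > Yki discs and 232, 218 and 167 in the tumorous discs. This was the largest rise of the family against ap > GFP, 0.77 ± 0.23 with an adjusted p by limma of 0.0382. Against ap > Yki it was 0.70 ± 0.20 with an adjusted p of 0.0409, and again the tumorous libraries lay above the other 7. Leaving out ap > GFP 1, ap > GFP 3, ap > Yki 2, ap > Yki+NelfAi 1 or ap > Yki+NelfAi 2 ended both calls (0.0615 to 0.189 and 0.0698 to 0.138), and leaving out ap > Yki 1 ended that against ap > Yki (0.150).

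The 3 tumorous libraries lay above all 7 others for 5 V-ATPase genes, where 11.4% of all genes tested showed this, and below them for 0 genes, where 12.0% of all genes did. All 5 genes encode V1 subunits. Besides Vha68-2, Vha55, Vha44 and Vha26 the remaining gene was VhaSFD, which encodes the regulatory subunit H. It was at 60.6 and 60.7 in ap > GFP and 80.8, 91.8 and 72.1 in the tumorous discs, a log2 fold change of 0.42 ± 0.17 with an adjusted p of 0.111 by limma, which was not called. For 0 of the 8 V0 genes did the tumorous libraries stand apart from the other 7 in either direction.

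Of the other V1 genes, Vha36-1 (subunit D of the rotor) changed by 0.51 ± 0.34, with an adjusted p of 0.332 by limma, which was not called, and it was highest in ap > Yki, with values of 59.7 to 112 that overlap the 66.3 to 91.5 of the tumorous discs. Vha14-1 (subunit F) and Vha13 (subunit G) differed by 0.20 ± 0.28 and 0.07 ± 0.29. Vha68-1, a paralog of Vha68-2 on the same arm, from 13000770 to 13004107, was near the lower end of detection. It had 22 and 27 reads in ap > GFP, 18 and 19 in ap > NelfAi, 17, 13 and 5 in the ap > Yki discs and 13, 7 and 14 in the tumorous discs. Its values were 1.41 and 1.46, 1.51 and 1.16, 0.916, 0.617 and 0.232, and 0.617, 0.480 and 0.698 in the same order. Both genotypes with Yki were thus below ap > GFP in every library, but neither difference was called, with log2 fold changes of -0.88 ± 0.32 in ap > Yki (adjusted p by limma 0.181) and -0.82 ± 0.32 in the tumorous discs (adjusted p 0.0964). How reads that match both A subunit genes were counted is not given in the sources used here, so the split between Vha68-1 and Vha68-2 is uncertain.

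The V0 gene called lower was Vha100-4, a gene for the membrane-bound a subunit that is known from acid-secreting cells of the fly midgut. It lies on arm 3R, from 18386841 to 18389805, next to its paralog Vha100-2. It had 37 and 25 reads in ap > GFP, 3 and 8 in ap > NelfAi, 53, 20 and 61 in the ap > Yki discs and 7, 1 and 0 in the tumorous discs. The values were 2.37 and 1.35, 0.252 and 0.490, 2.86, 0.950 and 2.83, and 0.332, 0.0685 and 0 in the same order. Every library that carries NelfA RNAi was below every library that does not, ap > NelfAi 2 included, whose Nelf-A level of 32.9 lay near the controls. How many of all genes tested showed this split was not counted, and the split itself was not tested. The log2 fold change of Vha100-4 was -1.90 ± 0.44 against ap > GFP and -2.03 ± 0.39 against ap > Yki, with adjusted p-values by limma of 0.0135 and 0.00715. In ap > NelfAi it was -1.42 ± 0.48 with an unadjusted p of 0.0151 and an adjusted p of 0.968, which was not called. With so few reads the size depends on the scale, and it was -3.66 by edgeR and -3.76 by DESeq2 against ap > GFP, but the gene was called under every alternative except the fit without ap > GFP 1, with an adjusted p of 0.128, in a range of 0.000514 to 0.128 over all alternatives. In the comparison with ap > Yki it was called under every alternative.

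No other a subunit gene was called. Vha100-2 was at 115 and 81.1 in ap > GFP, 58.5 and 67.5 in ap > NelfAi, 107, 87.1 and 117 in the ap > Yki discs and 64.2, 88.5 and 62.2 in the tumorous discs. It differed by -0.44 ± 0.24 from ap > GFP and by -0.54 ± 0.21 from ap > Yki, with adjusted p-values by limma of 0.216 and 0.109, neither called, so its sign was that of Vha100-4 at a smaller size. Vha100-1 was at 25.5 and 23.7 in ap > GFP, 38.3, 36.5 and 38.6 in the ap > Yki discs and 35.7, 26.8 and 28.2 in the tumorous discs, so that ap > Yki was the highest genotype for it. Of the a subunit signal per kb of exon, Vha100-2 made up 64.5% to 80.5% over the libraries, Vha100-1 17.6% to 35.1% and Vha100-4 0% to 2.29%. The remaining V0 genes, Vha16-1 (the c subunit of the proton ring), VhaPPA1-1 (c''), VhaAC39-1 (d) and VhaM9.7-b and VhaM9.7-c (e), had log2 fold changes of -0.01 to 0.37 against ap > GFP, and none of them was called. The accessory genes VhaAC45 and VhaM8.9 differed by 0.48 ± 0.24 and 0.30 ± 0.20. VhaM8.9 is now named ATP6AP2 and is also known as the prorenin receptor gene.

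**Figure D2:**
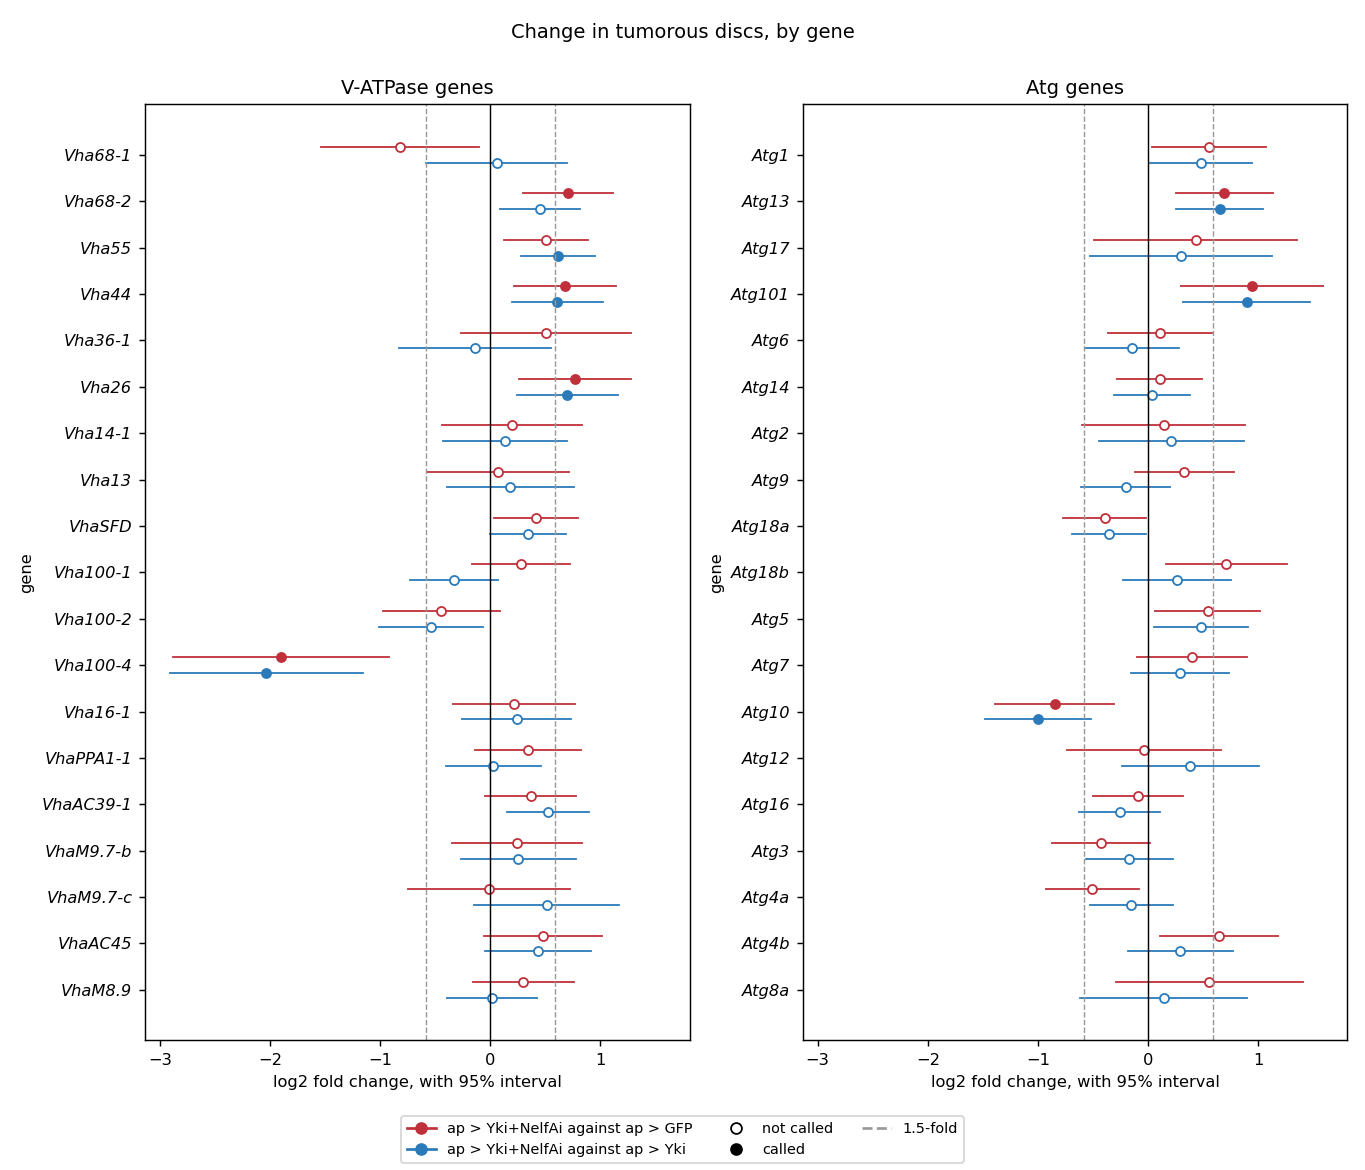
The log2 fold change of each gene in ap > Yki+NelfAi is shown against ap > GFP (red) and against ap > Yki (blue), with its 95% interval from limma, filled where the gene was called, and dashed lines at 1.5-fold. Vha100-4 at -1.90 and -2.03 is the largest change, and the filled points above 0 are Vha68-2, Vha55, Vha44 and Vha26 of the V-ATPase and Atg13 and Atg101 of the Atg genes.

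What adding NelfA RNAi to UAS-Yki changes was asked by comparing the tumorous discs with ap > Yki. The RNA level of yki differed between them too. It was at 2637.18, 3395.5 and 4006.94 in ap > Yki and 8143.04, 11376.5 and 9924.69 in the tumorous discs. The comparison therefore does not hold the yki level equal, and the part of that level in the results was not tested. Both comparisons share the tumorous libraries, so their calls are not independent. Of the 19 V-ATPase genes, 3 were called higher, Vha55, Vha44 and Vha26, where 7.20% of all genes were, and Vha100-4 was called lower, where 10.2% of all genes were. The median log2 fold change was 0.24 against 0.02 over all genes. All genes called higher were again in V1, and VhaAC39-1 (subunit d of V0) had 0.52 ± 0.17 with an adjusted p of 0.0589, which was not called. With edgeR 1 was called higher, and with DESeq2 3 were.

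The counts of called V-ATPase genes depended on single libraries. Against ap > GFP the 4 calls became 0 without ap > GFP 1, 1 without ap > GFP 3, ap > Yki+NelfAi 1 or ap > Yki+NelfAi 2, and 2 without ap > Yki 2. Against ap > Yki the 4 calls became 1 without ap > Yki 1, ap > Yki 2, ap > Yki+NelfAi 1 or ap > Yki+NelfAi 2, and 2 without ap > GFP 1, ap > GFP 3 or ap > Yki+NelfAi 3. In the same fits the log2 fold change against ap > GFP ran from 0.64 to 0.77 for Vha68-2, 0.58 to 0.81 for Vha44 and 0.68 to 0.91 for Vha26. Against ap > Yki it ran from 0.56 to 0.66 for Vha55, 0.49 to 0.74 for Vha44 and 0.52 to 0.84 for Vha26, and the lower ends of these 3, like that of Vha44 against ap > GFP, were under 1.5-fold. Without both ap > NelfAi libraries, a fit added after seeing the data, 4 genes were called in each comparison.

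Neither transgene alone gave a called V-ATPase gene. In ap > Yki against ap > GFP, 0 of 19 were called by limma, edgeR or DESeq2, where limma called 2.41% of all genes higher and 1.64% lower, and 2 had an unadjusted p under 0.05 with each tool, where by limma 17.8% of all genes did. By limma these were Vha100-1, at 0.61 ± 0.20 with an adjusted p of 0.137, and Vha68-1. In ap > NelfAi against ap > GFP, 0 of 19 were called by any of the 3 tools, where limma called 0.0255% of all genes higher and 0.0509% lower. Here 2 genes had an unadjusted p under 0.05 by limma, 1 by edgeR and 2 by DESeq2, where 3.83% of all genes did by limma, and those of limma were Vha100-4 and Vha100-2, the latter at -0.61 ± 0.26. The median log2 fold changes of the family were 0.07 and -0.06, beside -0.01 and -0.02 over all genes.

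In the Atg family, 2 genes of the initiation complex were higher in the tumorous discs and Atg10 was lower. Compared with ap > GFP, 2 of the 19 Atg genes were called higher, Atg13 and Atg101, and 1 lower, Atg10, beside the 10% and 12.1% of all genes given above, so these counts too lie near the background. Another 6 genes had an unadjusted p under 0.05, making 9 of 19 in all, where 35.3% of all genes did. The log2 fold change was above 0 for 13 of the 19 genes, and its median was 0.33 against 0.03 over all genes. The medians were 0.62 for the 4 initiation genes, 0.11 for the 2 nucleation genes, 0.23 for the 4 genes of membrane supply, -0.04 for the 5 of Atg12 conjugation and 0.06 for the 4 of Atg8 conjugation. No gene of nucleation, membrane supply or Atg8 conjugation was called by limma, edgeR or DESeq2, and 0, 2 and 2 of them had an unadjusted p under 0.05 by limma.

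**Figure D3:**
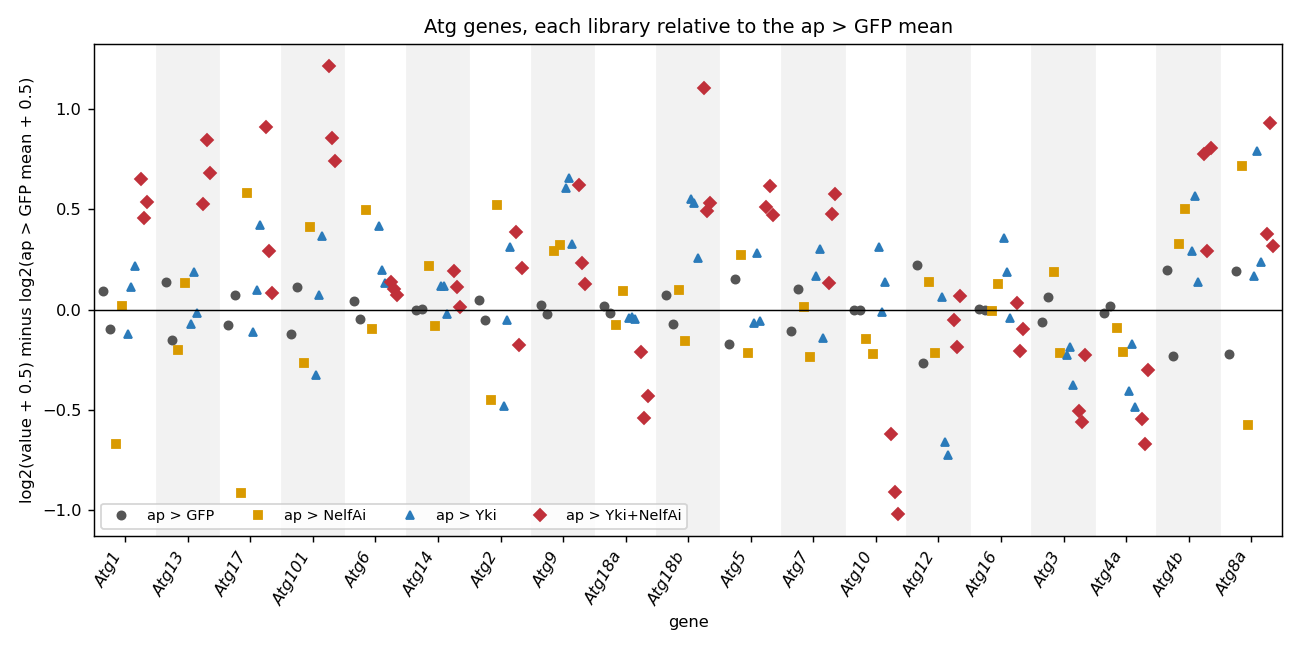
Each point is a library, plotted by gene as log2(value + 0.5) minus the log2 of the ap > GFP mean + 0.5, with a marker and color for each genotype. The tumorous libraries lie above all others for Atg1, Atg13, Atg101 and Atg5 and below all others for Atg18a and Atg10.

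Atg101 encodes a small partner of Atg13 in the Atg1 kinase complex and lies on the X chromosome, from 18791668 to 18793517. It was at 4.41 and 5.29 in ap > GFP, 3.94 and 6.61 in ap > NelfAi, 3.77, 5.13 and 6.41 in the ap > Yki discs and 11.9, 9.18 and 8.43 in the tumorous discs. Its mean was 4.85 ± 0.620 (SD, n = 2) in ap > GFP and 9.84 ± 1.83 (SD, n = 3) in the tumorous discs, the largest rise among the Atg genes. The log2 fold change was 0.94 ± 0.29 against ap > GFP and 0.90 ± 0.26 against ap > Yki, with adjusted p-values by limma of 0.0433 and 0.0393. Without ap > GFP 1, ap > GFP 3, ap > Yki 2 or any tumorous library both calls were lost (0.0653 to 0.233 and 0.0622 to 0.124), and without ap > Yki 1 that against ap > Yki (0.147).

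Atg13 encodes the regulatory partner that links Atg1 to nutrient signaling, and lies on arm 3R, from 8349815 to 8352817. It was at 21.9 and 17.9 in ap > GFP, 17.2 and 21.9 in ap > NelfAi, 18.9, 22.7 and 19.6 in the ap > Yki discs and 28.8, 36.1 and 32.1 in the tumorous discs. The 7 other libraries thus spanned 17.2 to 22.7 and all lay under the lowest tumorous library. On the log2 scale it rose by 0.69 ± 0.20 against ap > GFP and by 0.65 ± 0.18 against ap > Yki, with adjusted p-values by limma of 0.0334 and 0.0316. Both calls were lost without ap > GFP 1, ap > GFP 3, ap > Yki 1, ap > Yki+NelfAi 2 or ap > Yki+NelfAi 3 (0.0502 to 0.252 and 0.0504 to 0.125), and that against ap > Yki also without ap > Yki 2 (0.0518) or ap > Yki 3 (0.0647). The other initiation genes were the kinase gene Atg1, at 14.7 and 12.8 in ap > GFP and 21.9, 19.1 and 20.2 in the tumorous discs, and the scaffold gene Atg17, at 12.7 and 14.1 and 25.7, 16.6 and 14.3. Their log2 fold changes of 0.55 ± 0.23 (adjusted p 0.116) and 0.43 ± 0.41 (adjusted p 0.504) were not called by limma.

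Atg10 encodes the E2-like enzyme that joins Atg12 to Atg5, and lies on arm 2R, from 7832171 to 7835518. It was the lowest of the Atg genes per kb, with 27 and 32 reads in ap > GFP, 18 and 23 in ap > NelfAi, 42, 36 and 42 in the ap > Yki discs and 20, 10 and 12 in the tumorous discs. The values were 1.73 and 1.73, 1.51 and 1.41, 2.26, 1.71 and 1.95, and 0.949, 0.685 and 0.599. Every tumorous library was under every other. Its log2 fold change was -0.85 ± 0.24 against ap > GFP and -1.0 ± 0.21 against ap > Yki, with adjusted p-values by limma of 0.0322 and 0.0120. Leaving out ap > Yki+NelfAi 2 or ap > Yki+NelfAi 3 ended both calls (0.0918 and 0.0956, and 0.0501 and 0.0525), leaving out ap > GFP 1 (0.158) or ap > GFP 3 (0.169) that against ap > GFP, and leaving out ap > Yki 1 (0.0591) that against ap > Yki. Over 46.6% of its exonic length Atg10 overlaps Dgk on the opposite strand, whose level was not analysed here, and 53 bp overlap CG12822 on the same strand, which was not called, at 0.27 ± 0.17 against ap > GFP. Reads of Atg10 and Dgk cannot be told apart where counting does not use strand.

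Atg18b encodes a WD-repeat protein that binds phosphoinositides. It had the second highest log2 fold change of the family against ap > GFP, 0.71 ± 0.24, with an adjusted p of 0.0644 by limma, which was not called. It stood at 3.45 and 3.08 in ap > GFP, 3.52 and 2.88 in ap > NelfAi, 5.01, 4.94 and 3.99 in the ap > Yki discs and 7.59, 4.80 and 4.94 in the tumorous discs. Both genotypes with Yki were above the others, and the difference from ap > Yki was 0.26 ± 0.22. It was called without ap > NelfAi 1 (adjusted p 0.0447), without ap > NelfAi 2 (0.0454) and without both, and over all alternatives its adjusted p ran from 0.0395 to 0.295. Its paralog Atg18a had the opposite sign, at 31.8 and 30.9 in ap > GFP, 30.5, 30.6 and 30.3 in the ap > Yki discs and 27.0, 21.4 and 23.1 in the tumorous discs, a log2 fold change of -0.39 ± 0.17 with an adjusted p of 0.124, not called.

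Atg4a encodes a cysteine protease that trims Atg8. It was at 15.7 and 16.1 in ap > GFP, 14.8 and 13.7 in ap > NelfAi, 11.9, 14.1 and 11.2 in the ap > Yki discs and 10.7, 9.80 and 12.8 in the tumorous discs, so that tumorous and ap > Yki libraries overlapped. Against ap > GFP this made -0.51 ± 0.19 on the log2 scale with an adjusted p of 0.0817 by limma, not called. CG4629 on the opposite strand overlaps 51.4% of its exonic length, and its level was not analysed here. Atg4b, for a protease of the same kind, had the opposite sign, 0.64 ± 0.24, with an adjusted p of 0.0839.

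Atg8a encodes the ubiquitin-like protein that coats the membrane, and its libraries varied widely within genotypes. It was at 138 and 184 in ap > GFP, 265 and 108 in ap > NelfAi, 181, 279 and 190 in the ap > Yki discs and 209, 308 and 201 in the tumorous discs. Its log2 fold change of 0.56 ± 0.38 against ap > GFP was not called, with an adjusted p of 0.334 by limma. Atg5, the target of Atg12, was at 19.3 and 24.3 in ap > GFP and 31.3, 33.7 and 30.5 in the tumorous discs, above every other library, with 0.54 ± 0.21 and an adjusted p of 0.0980, not called. The other genes, Atg6 (Beclin) and Atg14 of nucleation, Atg2 and Atg9 of membrane supply, Atg7 (the E1-like enzyme), Atg12, Atg16 and Atg3 of conjugation, lay between -0.43 and 0.40 and were not called.

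For 4 Atg genes, Atg1, Atg13, Atg101 and Atg5, the tumorous libraries were above all 7 others, and for 2, Atg18a and Atg10, below them, beside 11.4% and 12.0% of all genes. Against ap > Yki, 2 Atg genes were called higher, Atg13 and Atg101, and Atg10 lower, beside the 7.20% and 10.2% of all genes. The median log2 fold change was 0.21 against 0.02 over all genes, and 12 of the 19 were above 0. That median was 0.06 without ap > Yki 1 and 0.07 without ap > Yki+NelfAi 1, and the median against ap > GFP was 0.18 without ap > Yki+NelfAi 1. Of these calls, 3 in each comparison, 0 were left against ap > GFP without ap > GFP 1, ap > GFP 3, ap > Yki+NelfAi 2 or ap > Yki+NelfAi 3. Against ap > Yki, 0 were left without ap > Yki 1, ap > Yki+NelfAi 2 or ap > Yki+NelfAi 3, and 1 without ap > GFP 1, ap > GFP 3 or ap > Yki 2.

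As in the V-ATPase, neither transgene alone gave a called Atg gene. In ap > Yki against ap > GFP, 0 of 19 were called and 1 had an unadjusted p under 0.05 by each of limma, edgeR and DESeq2, under the 17.8% of all genes. By limma this was Atg9, a membrane protein of autophagic vesicles, at 12.7 and 12.3 in ap > GFP and 19.2, 19.9 and 15.7 in ap > Yki, for a difference of 0.53 ± 0.20 on the log2 scale with an adjusted p of 0.204. In ap > NelfAi against ap > GFP, 0 of 19 were called and 0 had an unadjusted p under 0.05 by any of the 3 tools. The medians of the family were 0.07 and 0.01.

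Whether the effect of NelfA RNAi differed between discs with and without Yki was tested directly. The measure was the change from ap > Yki to the tumorous discs minus the change from ap > GFP to ap > NelfAi. The change from ap > Yki comes with the higher yki level given above. In the other change yki was at 265 and 307 in ap > GFP and 187 and 75.0 in ap > NelfAi. The part of these yki levels was not tested. By limma 0 members of either family were called, where 1.26% of all genes were called in either direction. At an unadjusted p under 0.05 limma gave 4 V-ATPase and 3 Atg genes, edgeR 3 and 2, and DESeq2 3 and 1, and edgeR and DESeq2 also called 0. Of all genes, 14.8% had such a p by limma. By limma the 4 were Vha26, at 0.85 ± 0.32, Vha44, at 0.80 ± 0.29, Vha55, at 0.73 ± 0.24, and Vha68-2, at 0.58 ± 0.26, all of V1, with adjusted p-values of 0.191 to 0.337. The Atg genes were Atg1, at 0.80 ± 0.32, Atg13, at 0.68 ± 0.28, and Atg10, at -0.81 ± 0.34, with adjusted p-values of 0.295 to 0.304. Without ap > NelfAi 2, the library whose Nelf-A level lay near the controls, Atg1 was at 1.14 and Vha55 at 0.90. Only ap > NelfAi 1 then stands for its genotype, where Atg1 was at 8.47 against 14.0 in ap > NelfAi 2. That library had the length correlation of -0.66, the lowest wing disc marker sum, 293, and muscle and fat body sums of 996 and 258. That fit takes the spread of the single ap > NelfAi library from the other genotypes.

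Levels between genes were compared per kb of exon, as medians over the 10 libraries. Among the V-ATPase genes Vha16-1, for the c ring of which the pump holds many copies, was highest at 217 per kb (137 to 270). VhaM8.9 followed at 82.6 (66.2 to 98.6), and from Vha36-1 at 64.8 down to VhaPPA1-1 at 41.9 neighbours in the order overlapped widely between libraries. VhaAC45, Vha100-2, VhaSFD, Vha44, VhaM9.7-c and Vha100-1 lay between 27.6 and 8.37. Vha68-1 at 0.302 (0.0867 to 0.564) and Vha100-4 at 0.264 (0 to 1.05) were far below all other members. Among the Atg genes Atg8a was highest at 115 per kb (63.7 to 182), above Atg5 at 17.9 (13.2 to 23.8) in every library. The others ran from Atg18a at 10.4 to Atg18b at 1.81 with overlapping neighbours, and Atg10 was lowest at 1.06 (0.395 to 1.49). The summed value of the 19 V-ATPase genes was 1865 and 1769 in ap > GFP, 1638 and 1845 in ap > NelfAi, 1811 to 2029 in the ap > Yki discs and 2071 to 2464 in the tumorous discs, all above the others, the lowest close to ap > Yki 2. The sum was not tested and is weighted to the highest genes. Vha16-1, which was not called, made up 596 to 687 of it in ap > GFP and 647 to 830 in the tumorous discs.

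**Figure D4:**
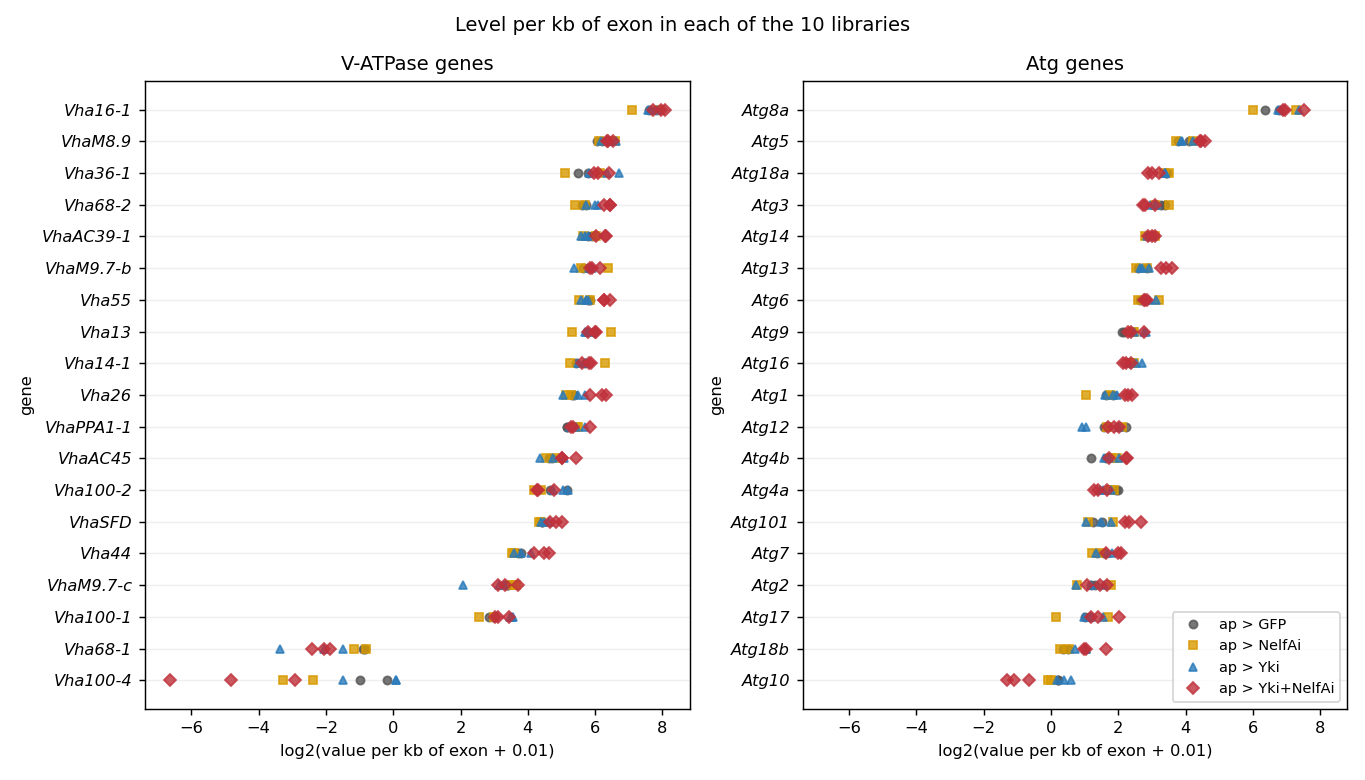
The value per kb of exon of each gene in each of the 10 libraries is shown on a log2 axis after adding 0.01, ordered by the median over libraries, with a marker and color for each genotype. Vha16-1 at a median of 217 per kb and Atg8a at 115 lead their families, and Vha68-1 and Vha100-4, at 0.302 and 0.264, lie apart from the other V-ATPase genes.

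Other genes that act with the families were taken from lists by function. Of 5 genes for V-ATPase assembly and regulation, 0 were called higher and mtd was called lower in the tumorous discs, beside 10% and 12.1% of all genes. The gene mtd encodes a TLDc domain protein, a class that binds V1 in yeast and mammals. It was at 60.4 and 63.4 in ap > GFP, 56.8 and 59.8 in ap > NelfAi, 53.7, 54.1 and 69.0 in the ap > Yki discs and 34.0, 28.6 and 30.8 in the tumorous discs, and changed by -0.98 ± 0.18 (log2) from ap > GFP and by -0.90 ± 0.16 from ap > Yki (adjusted p by limma 0.00417 and 0.00465). CG31030, a relative of VhaAC45, was called lower against ap > Yki only, by -1.74 ± 0.39 with an adjusted p by limma of 0.0140. Its change of -1.29 ± 0.43 against ap > GFP had an adjusted p of 0.0604. The difference between these comparisons was not tested. Against ap > Yki both mtd and CG31030 were thus called lower, beside 10.2% of all genes. Rbcn-3A and Rbcn-3B, which assemble the pump, and Mitf, a transcription factor of lysosomal genes, were not called in either.

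Of 16 other autophagy genes, 15 were listed, of which 3 were called higher than in ap > GFP and 0 lower, beside 10% and 12.1% of all genes. They were Syx17, the SNARE of the autophagosome, at 1.13 ± 0.24 (adjusted p by limma 0.00906), ref(2)P, the p62 cargo adaptor, at 1.13 ± 0.30 (adjusted p 0.0256), and lt, a subunit of the HOPS tethering complex, at 0.73 ± 0.23 (adjusted p 0.0477). The protein of ref(2)P is itself degraded by autophagy, but these are RNA values. It was at 141 and 70.0 in ap > GFP, 63.7 and 86.4 in ap > NelfAi, 136, 124 and 94.8 in the ap > Yki discs and 208, 246 and 202 in the tumorous discs, above all other libraries although the ap > GFP libraries differed widely. Against ap > Yki lt, at 0.85 ± 0.20, and ref(2)P, at 0.89 ± 0.27, were called higher, beside 7.20% of all genes. Leaving out a library kept the call of Syx17 in 9 of 10 fits, of ref(2)P in 6 and of lt in 4 against ap > GFP.

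Among genes of lysosomal content CtsB1 and Hexo1 were lower in the tumorous discs. Of 16 such genes 11 were listed, and these 2 were called lower against ap > GFP and 0 higher, near the 12.1% and 10% of all genes. CtsB1, for cathepsin B, was at 47.5 and 50.0 in ap > GFP, 60.4 and 46.4 in ap > NelfAi, 62.7, 57.6 and 45.7 in the ap > Yki discs and 23.7, 24.9 and 28.9 in the tumorous discs. Hexo1, for a hexosaminidase, was at 93.5 and 116, 127 and 113, 104, 89.2 and 89.5, and 48.9, 54.3 and 52.2 in the same order. Both were lower in every tumorous library than in any other, by -0.91 ± 0.20 and -1.0 ± 0.17 on the log2 scale against ap > GFP (adjusted p by limma 0.0120 and 0.00325). Against ap > Yki 4 were called lower and 0 higher, beside 10.2% and 7.20% of all genes, these genes together with Npc2a, for a sterol-binding protein, at -0.98 ± 0.27, and spin, for a lysosomal permease, at -1.08 ± 0.27. The calls of Npc2a and spin held in 3 and 6 of the 10 fits without a library. Of 8 regulators of the TOR kinase and of the response to nutrients, 0 were called in either comparison by limma, and 1 had an unadjusted p under 0.05 in each. For these 8, edgeR called 0 in both comparisons, and DESeq2 called 1 higher against ap > GFP and 0 against ap > Yki. In ap > Yki and in ap > NelfAi against ap > GFP, 0 genes of these 4 lists were called by limma, edgeR or DESeq2, and limma gave an unadjusted p under 0.05 for 3 other autophagy genes and 1 lysosomal gene in ap > Yki and for 0 in ap > NelfAi.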

How the data were processed

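The deposited table holds, for 7987 genes and 10 libraries, a signal that the authors made by alignment with HISAT to build dm6 and counting per gene, then division by a factor of the library. The submitters' processing notes also name bcl2fastq, StringTie and edgeR. Divided by the value of a single read in its library, 100% of the values came out whole within 0.001 read, and these reads were used for the count models. Treatment of strand and of reads with several matches is not given in the sources used here. The 5 rows of unassigned reads, 28.4% to 36.5% of the reads, were left out, and 5 tables of the authors' own fold changes and p-values were not used. All 10 value columns were matched to samples by title, and 0 were left unmapped.

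The main test was limma 3.58.1 (R 4.3.3, with a trend of variance on level) on log2(value + 0.5), in 1 fit of all 10 libraries with genotype as the factor, over the 7858 genes at 1 or more in at least 2 libraries. All 38 members passed that filter. P-values were adjusted over all 7858 genes by Benjamini-Hochberg. The same contrasts were fitted to the recovered reads with edgeR 4.0.16 (quasi-likelihood) and DESeq2 1.42.0. The fits were also run on simulated counts with the same dispersion for all genes and no trend with length. That setting differs from these libraries, so it does not show how the fits perform on them. Gene lengths and positions came from the Ensembl BDGP6 annotation, to which 7876 genes and all 38 members were matched by identifier or symbol. Values in each library are given for genes called in any comparison and for the 2 highest and the 2 lowest changes of each family against ap > GFP. Others shown in full, the further lists included, were chosen after their values were seen. The members and lists were chosen with earlier results of these data known.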

Additional observations from a re-analysis of the deposited data

How the results depend on the processing

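Besides leaving out each of the 10 libraries in turn, 12 other settings were tried: RLE and TMM scaling, pseudocounts of 0.1 and 1, no filter, no fold minimum, only the genotypes compared, the replicate block, edgeR, DESeq2, removal of each library's trend with transcript length and, chosen after seeing the data, both ap > NelfAi libraries left out. Outside the leave-one-out fits, 98 counts of called genes were within 1.5 times the main count and 6 were not. The 98 include counts of 0 that stayed at 0. Among the leave-one-out fits 67 counts were within that range and 23 were not. With the replicate number as a block (replicate block), the V-ATPase genes called against ap > GFP became 1 and the Atg genes 0, and against ap > Yki 1 and 1. Of 12 same-numbered pairs, 4 had a correlation over 0.1 (-0.43 to 0.59) in their deviations from the genotype mean. With 2 or 3 libraries per genotype these deviations depend on each other. They therefore cannot show whether the numbers mark libraries that were made together. With edgeR 2 V-ATPase genes were called against ap > Yki, and removing the length trend gave 1 call (Vha100-1) for ap > Yki compared with ap > GFP. The cause was not tested. Single libraries left out gave 0 to 4 called V-ATPase genes and 0 to 4 Atg genes against ap > GFP, 1 to 4 and 0 to 3 against ap > Yki, 0 in ap > Yki and in ap > NelfAi against ap > GFP, and 0 to 2 members for the difference of the NelfA RNAi effect.

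For single genes and family medians 654 values stayed the same, 19 lost a call, 5 gained one and 3 turned, none of them called. A gene stayed the same where it kept its direction and side of the threshold. A median did where it moved by less than the SD between libraries of a genotype. Those that turned were VhaM9.7-c with edgeR (0.00803) and Atg12 with the replicate block (0.041) and without the length trend (0.057), all against ap > GFP. Leaving out single libraries gave ranges across 0 for Vha13 (-0.030 to 0.17), VhaM9.7-c (-0.17 to 0.11) and Atg12 (-0.28 to 0.21) against ap > GFP and Vha68-1 against ap > Yki (-0.20 to 0.27). Over the alternatives the adjusted p of Vha100-4 ran from 0.000514 to 0.128 against ap > GFP and from 5.11e-05 to 0.0383 against ap > Yki. With the length trend removed limma called 1071 of all genes higher and 1314 lower against ap > GFP, 915 and 1119 against ap > Yki, 432 and 311 in ap > Yki against ap > GFP, and 126 and 280 for the difference of effects (main 25 and 74). Only the genotypes compared gave 1304 and 1275 against ap > GFP, and 0 and 0 in ap > NelfAi against ap > GFP. The difference of effects could not be fitted there. Depth limits Vha100-4, Vha68-1, Atg10 and Atg12, which had at most 61, 27, 42 and 38 reads in any library.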
